A study of Mus musculus with 3 samples.

Results

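The genes described here are 10 central genes of the unfolded protein response, the programme by which a cell adjusts protein folding in the endoplasmic reticulum (ER). They were chosen by name: Hspa5, Hsp90b1, Dnajb9, Sel1l, Ern1, Eif2ak3, Atf6, Xbp1, Atf4 and Ddit3, which are 10 of the 32285 gene rows counted, or 11 rows, because Ddit3 has a second, overlapping gene entry. The 3 libraries, 1 for each group, hold the RNA of individual nuclei from the submandibular gland, a major salivary gland, of wild-type mice. The first group was irradiated and given pilocarpine, a muscarinic agonist that stimulates saliva secretion, between day 30 and day 90 after irradiation. The second was irradiated and given saline, and the third had no irradiation and no treatment, so irradiation and the saline given with it cannot be told apart. The sample titles give day 90 for both irradiated groups and the extraction protocol gives day 93. The labels used here do not give the number, sex or age of the mice behind a library, the radiation dose or the hour of collection. With 1 library per group there is no test between groups, and every interval below covers counting error only.

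As background, a serous acinar cell folds large amounts of secreted protein in its ER, and plasma cells and exocrine cells are textbook settings of this response. Unfolded protein frees 3 sensors in the ER membrane from the chaperone BiP: IRE1α (from Ern1), PERK (Eif2ak3) and ATF6 (Atf6). IRE1α splices Xbp1 mRNA so that it encodes an active transcription factor, PERK slows translation while favouring that of Atf4 mRNA, and ATF6 is cut in the Golgi to release a transcription factor. Gene counts of this kind show none of these 3 activating steps: they give RNA per gene, without the splicing of Xbp1, the phosphorylation of the kinases or the cleavage of ATF6. The libraries were made from sorted nuclei of frozen glands, so the levels are those of nuclear RNA.

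After filtering, 27633 nuclei with 88101885 UMIs were used: 8376 from the irradiated + pilocarpine, 8622 from the irradiated + saline and 10635 from the non-irradiated library, with a median of 2048, 2113 and 1536 UMIs. A UMI (unique molecular identifier) counts 1 captured RNA molecule. Clusters left without a cell type name held 864, 1226 and 1893 of these nuclei, in that order of libraries, with 13432922, 8332443 and 9458873 UMIs. They are in none of the classes below, so the classes do not cover the whole gland. Levels are given as CPM, the UMIs of a gene per 1000000 UMIs of the same nuclei. Acinar-like nuclei numbered 4658, 3511 and 6197 in the same order of libraries, and all 11 acinar markers were found in each. They fell into 7 clusters that the libraries filled unequally: clusters 2, 4 and 8 were mostly irradiated nuclei, clusters 0 and 1 mostly non-irradiated ones, cluster 16 was led by the interferon-induced genes Rsad2 and Cmpk2, and cluster 19, led by the clock genes Arntl and Npas2, held 123 nuclei of the non-irradiated library alone. The 12 granular or striated duct markers summed to 1099, 1127 and 1213 CPM in acinar-like nuclei, and no list of another cell type exceeded 231 CPM. Pairs of libraries shared 28 to 33 barcodes. Free RNA was estimated from the deposited barcodes with fewer than 500 genes, 1911, 1536 and 1425 in the same order of libraries. These barcodes may include shallow nuclei, so their profile may not be free RNA alone, and every subtracted value below rests on it. The estimate was 17.2%, 11.4% and 29.0% of the UMIs of acinar-like nuclei. Acinar RNA was found in every class, as given beside the results it touches. With that free RNA subtracted, the acinar ratios of irradiated + saline over non-irradiated were 2.96 for Ddit3, 2.34 for Dnajb9, 1.73 for Atf4 and 1.53 for Hspa5, each on the same side as without subtraction. Ern1 changed side, from 1.03 to 0.965. Other acinar ratios near 1 also changed side: Ern1, Sel1l and Xbp1 for irradiated + pilocarpine over irradiated + saline, and Eif2ak3 for irradiated + pilocarpine over non-irradiated.

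The promoters of 2 of the genes hold a full ER stress response element (ERSE), CCAAT and CCACG with any 9 bases between them, which ATF6 is known to bind together with NF-Y. They are shown because Hspa5 and Hsp90b1 encode the main ER chaperones compared below. The 250 bases before the RefSeq start of each (build GRCm38.p6, 5′ to 3′ on the gene's strand, ERSE matches in capitals) are chr2:34771840-34772089 on the plus strand for Hspa5 and chr10:86705445-86705694 on the minus strand for Hsp90b1.
Hspa5: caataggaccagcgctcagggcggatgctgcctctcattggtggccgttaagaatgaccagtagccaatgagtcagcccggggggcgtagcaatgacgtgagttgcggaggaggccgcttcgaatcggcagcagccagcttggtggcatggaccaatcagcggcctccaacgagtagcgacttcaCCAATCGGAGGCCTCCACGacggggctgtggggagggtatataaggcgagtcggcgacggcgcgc
Hsp90b1: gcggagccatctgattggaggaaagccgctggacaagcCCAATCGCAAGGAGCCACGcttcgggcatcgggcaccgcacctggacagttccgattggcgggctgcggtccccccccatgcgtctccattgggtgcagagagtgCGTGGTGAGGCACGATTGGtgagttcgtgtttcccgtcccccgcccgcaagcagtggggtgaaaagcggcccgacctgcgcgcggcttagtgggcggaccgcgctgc
The match in Hspa5 lies 65 to 47 bases before the start. Hsp90b1 has 1 match at 212 to 194 bases on the gene's strand and 1 at 107 to 89 bases that reads CCAAT to CCACG on the opposite strand. Over all 32851 RefSeq promoter windows, from 250 bases before to 50 after a start, 39 hold an ERSE on either strand, or 0.119%. Of the 10 genes, 9 had a promoter window, and the other 7 with one hold none of the letters of ERSE, ERSE-II (ATTGG, any 1 base, CCACG), the UPRE core (TGACGTGG) or the C/EBP-ATF element CARE (TGATGNAA).

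In acinar-like nuclei, chaperone RNA was higher in both irradiated libraries than in the non-irradiated one. Hspa5, which encodes the ER chaperone BiP, was at 90.3 CPM in the irradiated + pilocarpine, 106 CPM in the irradiated + saline and 71.5 CPM in the non-irradiated library. Hsp90b1, for the chaperone GRP94, was at 145, 151 and 124 CPM in that order. Dnajb9, for the BiP co-chaperone ERdj4, was at 22.8, 28.9 and 12.9 CPM. All 3 chaperone genes were highest with saline and lowest without irradiation. Irradiated + saline over non-irradiated, Dnajb9 was 2.25 times as high (95% interval 1.84 to 2.76), Hspa5 1.48 times (1.35 to 1.62) and Hsp90b1 1.22 times (1.13 to 1.31). With pilocarpine set against saline, Dnajb9 was 0.787 times as high (0.668 to 0.927), Hspa5 0.855 times (0.787 to 0.929) and Hsp90b1 0.963 times (0.900 to 1.03), so that the interval of Hsp90b1 alone included no difference. With pilocarpine set against no irradiation, the ratios were 1.77 (1.44 to 2.18), 1.26 (1.15 to 1.38) and 1.17 (1.09 to 1.26) in the order Dnajb9, Hspa5 and Hsp90b1. Hsp90b1 overlaps the noncoding gene Gm15344 and the miRNA gene Gm25745 on its own strand, so part of its reads may have been assigned elsewhere. The same may hold for Eif2ak3, which overlaps the snoRNA gene Gm23346, and for Atf6, which overlaps the snRNA genes Gm23523 and Gm25235. These overlaps are those of the GENCODE annotation. Whether the overlapping genes are among the gene rows counted, and so could take reads, was not checked.

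**Figure D1:**
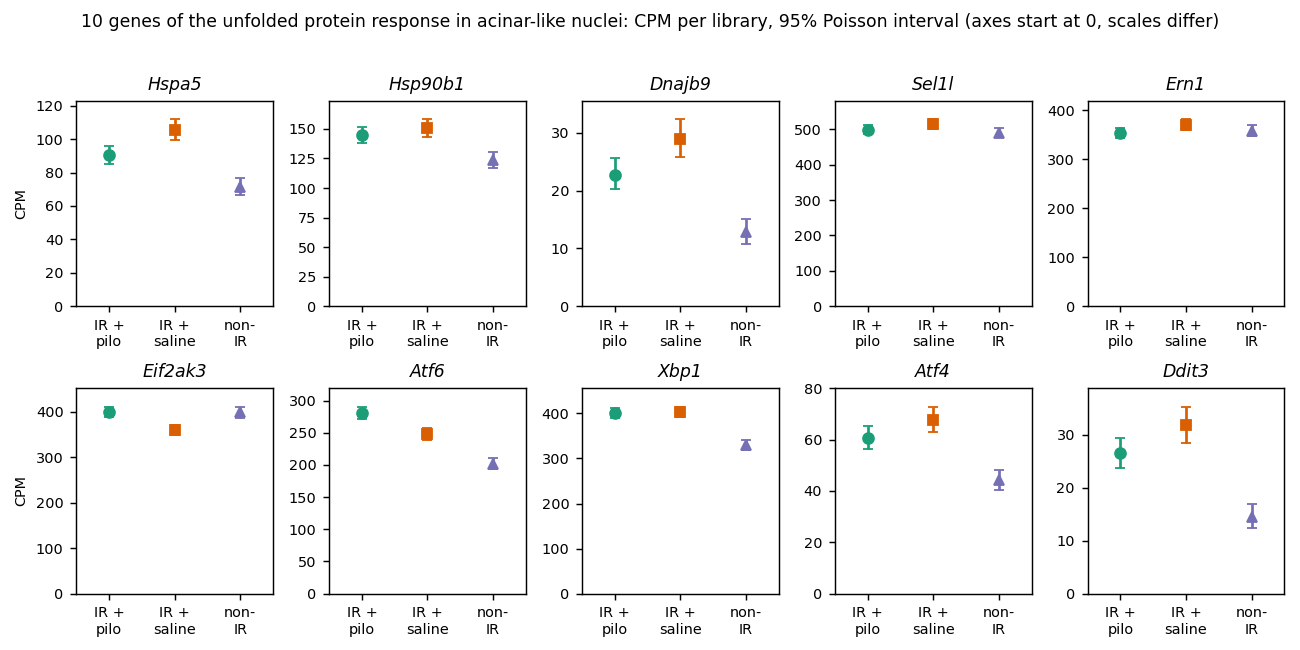
CPM (y axis, from 0, a scale for each gene) of the 10 genes in acinar-like nuclei of the irradiated + pilocarpine (IR + pilo), irradiated + saline (IR + saline) and non-irradiated (non-IR) library; bars are 95% Poisson intervals of the counts. Dnajb9 and Ddit3 stand farthest apart between libraries, for example 31.8 CPM for Ddit3 with saline and 14.5 CPM without irradiation, while Sel1l and Ern1 lie nearly level.

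Sel1l encodes the adaptor of the HRD1 ubiquitin ligase in ER-associated degradation, which removes misfolded proteins. Its level in acinar-like nuclei was 498 CPM in the irradiated + pilocarpine, 514 CPM in the irradiated + saline and 490 CPM in the non-irradiated library. The libraries lay close together: the ratio was 1.05 (1.01 to 1.09) for irradiated + saline over non-irradiated, 0.969 (0.935 to 1.01) for irradiated + pilocarpine over irradiated + saline and 1.02 (0.981 to 1.06) for irradiated + pilocarpine over non-irradiated. No library stood apart from the others by as much as the chaperone genes did.

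The 3 sensor genes each had a pattern of their own. Ern1 was at 353, 370 and 359 CPM in the irradiated + pilocarpine, irradiated + saline and non-irradiated library, with ratios of 1.03 (0.988 to 1.08) for irradiated + saline over non-irradiated and 0.954 (0.914 to 0.996) for irradiated + pilocarpine over irradiated + saline. Eif2ak3 was at 401, 361 and 399 CPM, lowest with saline, where it was 0.904 times as high as without irradiation (0.866 to 0.944), and it was 1.11 times as high with pilocarpine as with saline (1.06 to 1.16). Its ratio was 1.00 (0.964 to 1.05) for irradiated + pilocarpine over non-irradiated. Atf6 was at 281, 248 and 202 CPM, highest with pilocarpine. Its ratios were 1.23 (1.16 to 1.30) for irradiated + saline over non-irradiated, 1.13 (1.08 to 1.19) for irradiated + pilocarpine over irradiated + saline and 1.39 (1.32 to 1.47) for irradiated + pilocarpine over non-irradiated. Before free RNA was subtracted, Atf6 and Eif2ak3 were the only 2 of the 10 genes that were higher with pilocarpine than with saline. After subtraction, Sel1l, at 1.04 times, Ern1, at 1.01, and Xbp1, at 1.005, were also slightly higher.

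Among the transcription factors, Xbp1, the target of IRE1α, was at 401 CPM with pilocarpine, 403 CPM with saline and 329 CPM without irradiation. Both irradiated libraries were 1.22 times as high as the non-irradiated one (1.17 to 1.27 with pilocarpine and 1.17 to 1.28 with saline), and they hardly differed from each other, with a ratio of 0.995 (0.955 to 1.04). Atf4, the effector of PERK and of other eIF2α kinases, was at 60.8, 67.8 and 44.2 CPM. Ddit3, which encodes the ATF4 target CHOP, a factor linked to cell death under lasting ER stress, was at 26.5, 31.8 and 14.5 CPM. Both followed the order of the chaperones, highest with saline and lowest without irradiation. Irradiated + saline over non-irradiated, Ddit3 was 2.19 times as high (1.81 to 2.66) and Atf4 1.53 times (1.37 to 1.72). In the pilocarpine over the saline library, Ddit3 was 0.832 times as high (0.714 to 0.971) and Atf4 0.896 times (0.809 to 0.993). For irradiated + pilocarpine over non-irradiated, Ddit3 was 1.83 times as high (1.51 to 2.22) and Atf4 1.38 times (1.23 to 1.54). Every Ddit3 UMI was counted on 1 of its 2 overlapping entries, so its level is uncertain.

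Counted against a 1.5-fold difference, 3 of the 10 genes were past it for irradiated + saline over non-irradiated in acinar-like nuclei (Dnajb9, Ddit3 and Atf4), where 6.19% of the 11904 genes measured were as far above, and none was 1.5-fold lower, against 6.11% of all genes. The median log2 ratio of the 10 genes was 0.29, beside -0.03 over all genes. In the pilocarpine over the non-irradiated library, 2 genes were past it (Dnajb9 and Ddit3), beside 7.41% of all genes above and 4.16% below, and the median was 0.31 beside 0.02. For irradiated + pilocarpine over irradiated + saline, none of the 10 was past 1.5-fold in either direction, beside 2.96% of all genes above and 2.03% below. The median there was -0.06, beside 0.05 over all genes, and 2 of the 10 genes were higher, beside 61.2% of all genes. That count depends on free RNA, since Sel1l, Ern1 and Xbp1 were also slightly higher once it was subtracted. The 3 comparisons share libraries, so they are not independent of each other.

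**Figure D2:**
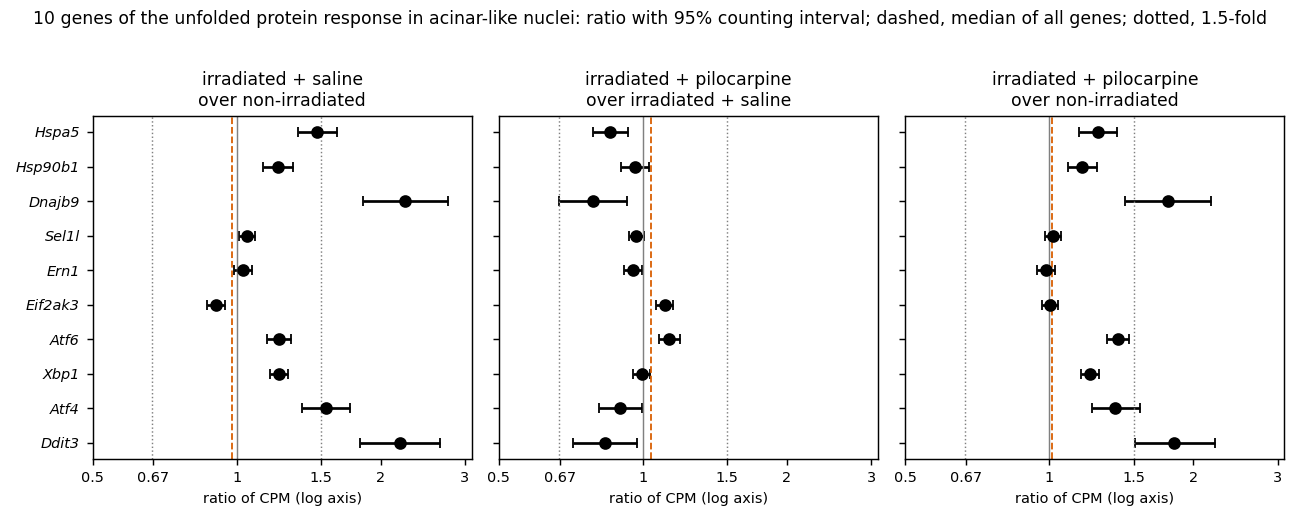
Ratio of CPM (x axis, log scale) of each of the 10 genes in acinar-like nuclei for the 3 comparisons, with 95% counting intervals; the dashed line is the median of all genes measured and the dotted lines mark 1.5-fold. Dnajb9 at 2.25 and Ddit3 at 2.19 lie farthest right for irradiated + saline over non-irradiated, and no point reaches a dotted line for irradiated + pilocarpine over irradiated + saline.

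The acinar-like nuclei of the 3 libraries had different depths, so the share of nuclei with at least 1 UMI was also taken after thinning to 1000 UMIs. Nuclei with fewer than 1000 UMIs were left out of the thinned shares. The thinned shares thus cover only the deeper nuclei, while the unthinned ones cover all. Ddit3 was then found in 2.87% of nuclei with pilocarpine (2.39 to 3.42), 3.32% with saline (2.73 to 3.99) and 1.19% without irradiation (0.904 to 1.54), and unthinned in 5.93%, 8.54% and 2.42%. Dnajb9 was found in 2.38%, 2.86% and 1.07% of thinned nuclei, and unthinned in 5.75%, 7.92% and 2.15%. Thinning kept the order of the libraries for both genes, while Eif2ak3, unthinned at 55.1%, 56.0% and 44.4%, came to 31.8%, 28.3% and 31.5% when thinned, which is the order of its CPM.

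Because the libraries fill the acinar-like clusters unequally, the ratios were also taken inside each of the 6 clusters with at least 50 nuclei in every library. For irradiated + saline over non-irradiated, Hspa5 was higher in 6 of 6 clusters (1.26 to 1.96 times), Atf4 in 6 (1.29 to 2.13), Xbp1 in 6 (1.11 to 1.53), Hsp90b1 in 6 (1.04 to 1.48) and Atf6 in 6 (1.01 to 1.38). Dnajb9 was higher in 5 of 6 clusters (0.421 to 3.30) and Ddit3 in 4 of 6 (0.943 to 2.99). These wide ranges stand beside few counts: in clusters 2, 4, 8 and 16 the non-irradiated library gave 2 to 10 Dnajb9 UMIs and 3 to 11 Ddit3 UMIs. With the 6 clusters weighted equally, a setting chosen after seeing the data, the log2 ratio was 0.48 for Dnajb9 and 0.52 for Ddit3, against 1.11 and 1.08 with all nuclei pooled, and Atf4, at 0.76, was the 1 gene past 1.5-fold. In the same setting no gene was past 1.5-fold for irradiated + pilocarpine over non-irradiated.

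Inside the clusters, irradiated + pilocarpine over irradiated + saline, Hspa5 was lower in 5 of 6 (0.780 to 1.02 times), as was Atf4 (0.710 to 1.34). Atf6 was higher in 6 of 6 (1.01 to 1.34). Dnajb9 and Ddit3 were each higher in 2 of 6, clusters 0 and 16, and lower in the other 4, with ranges of 0.613 to 1.38 and 0.624 to 1.47. In the pilocarpine over the non-irradiated library, Hspa5 (1.03 to 1.61), Xbp1 (1.18 to 1.46) and Atf6 (1.09 to 1.68) were higher in all 6 clusters. Dnajb9 and Ddit3, the 2 genes past 1.5-fold with all nuclei pooled, were each higher in 4 of 6, with ranges of 0.512 to 2.46 and 0.589 to 2.55.

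**Figure D3:**
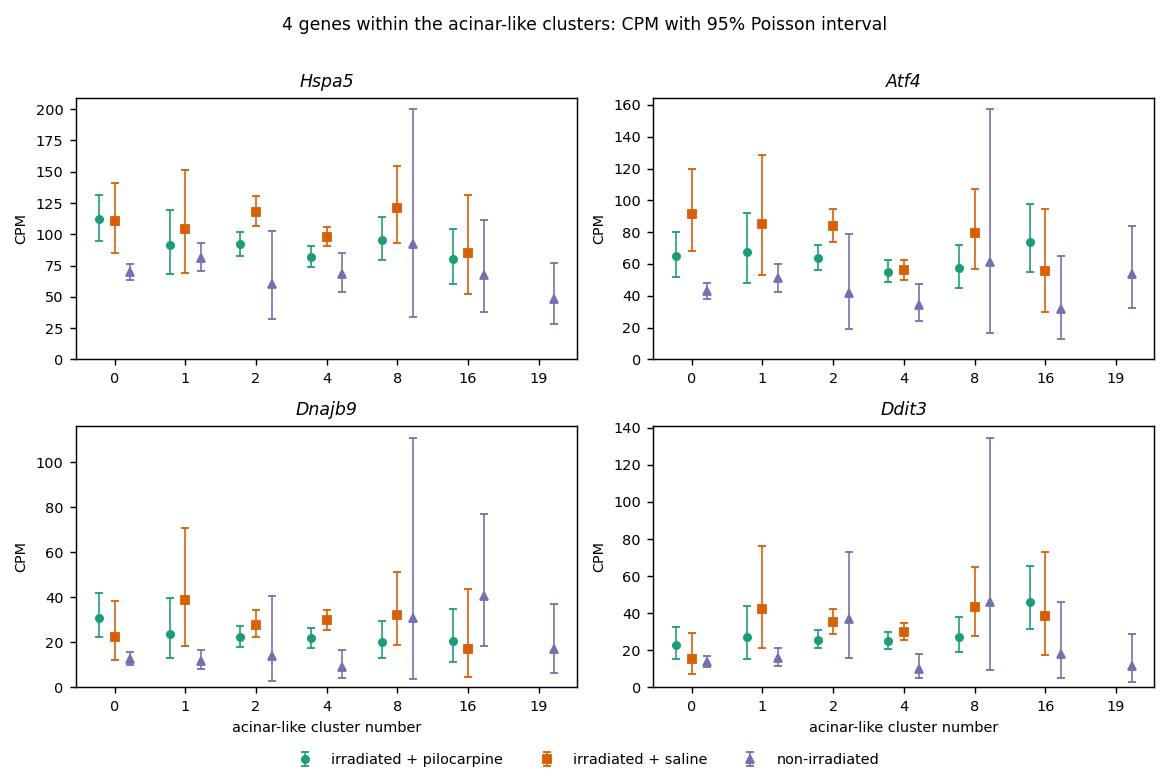
CPM (y axis, from 0) of Hspa5, Atf4, Dnajb9 and Ddit3 in each acinar-like cluster (x axis, cluster number) by library, with 95% Poisson intervals; cluster 19 holds non-irradiated nuclei alone. Hspa5 and Atf4 are higher with saline than without irradiation in each of the 6 shared clusters, while Ddit3 is nearly level in cluster 2 (35.1 CPM with saline and 37.0 CPM without irradiation).

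Gene length moved with the ratios. Among all genes in acinar-like nuclei, the median log2 ratio for irradiated + pilocarpine over non-irradiated was 0.17 for genes under 10 kb, 0.03 for 10 to 50 kb and -0.08 above 50 kb, and for irradiated + saline over non-irradiated it was 0.05, -0.04 and -0.07. Atf4 (2.36 kb), Dnajb9 (4.77 kb), Xbp1 (5.24 kb), Ddit3 (5.52 kb) and Hspa5 (5.58 kb) are short, and Eif2ak3 (60.7 kb), Ern1 (93.2 kb) and Atf6 (163 kb) are long. Set against the median of the 200 measured genes nearest in length, irradiated + saline over non-irradiated, Dnajb9 was at 1.03 on the log2 scale, Ddit3 at 1.06, Hspa5 at 0.51 and Atf4 at 0.50. On the same footing, irradiated + pilocarpine over non-irradiated, the values were 0.61 for Dnajb9, 0.67 for Ddit3, 0.19 for Atf4, 0.16 for Hspa5, 0.11 for Xbp1 and 0.63 for Atf6, the longest of the 10. The median of the 10 genes in that comparison was 0.17 on this footing, against 0.31 without it. The part of length in these results was not tested further.

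The wider pathway was described with 90 further genes in 5 lists. In acinar-like nuclei, irradiated + saline over non-irradiated, 86 were measured, 67 were higher, 7 were at least 1.5-fold higher and 1 was 1.5-fold lower, with a median log2 ratio of 0.16 beside -0.03 over all genes. Of all genes, 44.4% were higher, 6.19% at least 1.5-fold higher and 6.11% 1.5-fold lower, so the share of pathway genes past 1.5-fold is near the background. ER chaperones and folding enzymes were higher for 18 of 20 genes, with a median of 0.27. Calr, for the lectin chaperone calreticulin, was at 82.9 CPM with saline and 55.4 CPM without irradiation, a ratio that rounds to 1.5 (1.35 to 1.66) but lies just under the threshold, and P4hb, for a protein disulfide isomerase, was 1.22 times as high (1.15 to 1.29). The PERK and ATF4 arm had the highest median of the 5 lists, 0.40, with 14 of 18 measured genes higher (44.4% of all genes) and 6 past 1.5-fold (6.19% of all genes). Ddit4, which restrains the growth kinase complex mTORC1, was at 15.1 CPM with saline and 5.34 CPM without irradiation, 2.82 times as high (2.08 to 3.86). Sesn2, another stress-induced inhibitor of mTORC1, was 1.87 times as high (1.46 to 2.42). Both Ddit4 and Sesn2 are also known p53 targets, so they are not particular to this arm.

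The other 3 lists lay nearer to all genes in that comparison. ER-associated degradation had 10 of 14 genes higher and a median of 0.10, with none past 1.5-fold. Edem2, a mannosidase-like factor that marks glycoproteins for degradation, was 1.28 times as high (1.18 to 1.39), and its relative Edem3 0.829 times (0.791 to 0.868). Translocon and ER export genes were higher for 18 of 23, with a median of 0.11. Ssr4, a subunit of the translocon-associated complex, was 1.37 times as high (1.23 to 1.53), whereas Kdelr3, a receptor that returns ER proteins from the Golgi, was 0.65 times as high (0.540 to 0.780). Of 11 measured transducers and processing enzymes, 7 were higher, with a median of 0.06. Creb3l2, an ER-bound transcription factor, was 1.25 times as high (1.19 to 1.31), and Mbtps1, the Golgi protease that makes the first cut in ATF6, 0.776 times (0.719 to 0.837). Bhlha15 of that list is also an acinar marker used to name the class.

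Irradiated + pilocarpine over irradiated + saline, the lists differed in direction in acinar-like nuclei. The PERK and ATF4 arm had a median log2 ratio of -0.13, with 7 of 19 measured genes higher and 1 past 1.5-fold, which was lower: Atf5, a transcription factor induced by ATF4, was at 8.58 CPM with pilocarpine and 15.2 CPM with saline, 0.566 times as high (0.440 to 0.726). Nupr1, a stress-induced chromatin protein of the same list, went the other way at 1.30 times as high (1.22 to 1.38). Chaperones and folding enzymes had a median of 0.14 with 15 of 20 higher, and translocon and ER export genes 0.13 with 19 of 23 higher, beside 0.05 over all genes. Sdf2l1, an ER chaperone cofactor, was the 1 chaperone gene past 1.5-fold, 1.58 times as high (1.1 to 2.30) on 87 UMIs with pilocarpine and 48 with saline, and Manf, a secreted ER stress factor, was 1.18 times as high (1.07 to 1.30). Ssr4 was 1.43 times as high (1.31 to 1.57) and Kdelr3 1.42 times (1.18 to 1.70). In ER-associated degradation, 11 of 14 genes were higher with a median of 0.09, and Herpud1, which assembles the degradation complex, and Erlec1, a lectin of it, were each 1.24 times as high (1.19 to 1.29 and 1.09 to 1.40). Of the transducers, 6 of 11 were higher with a median of 0.05; Bhlha15, a secretory cell transcription factor, was 0.874 times as high (0.822 to 0.931) and Nfya, a subunit of NF-Y, 1.18 times (1.04 to 1.34). Over all 87 measured genes of the 5 lists the median was 0.09, with 58 higher, 1 past 1.5-fold above and 1 below. Over all genes 61.2% were higher, 2.96% past 1.5-fold above and 2.03% below, so these counts are near the background.

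Irradiated + pilocarpine over non-irradiated, 72 of 86 measured pathway genes were higher in acinar-like nuclei, 9 were past 1.5-fold, none was 1.5-fold lower, and the median log2 ratio was 0.25 beside 0.02 over all genes. Of all genes, 52.6% were higher, 7.41% past 1.5-fold above and 4.16% below, which is the background of the counts that follow. Chaperones and folding enzymes had the highest median, 0.38, with 18 of 20 higher and 5 past 1.5-fold. Sdf2l1 was at 6.97 CPM with pilocarpine and 2.54 CPM without irradiation, 2.75 times as high (1.78 to 4.38), and Calr at 94.9 and 55.4 CPM, 1.71 times as high (1.55 to 1.89). The PERK and ATF4 arm had a median of 0.28 with 15 of 18 higher and 3 past 1.5-fold, among them Ddit4 at 2.45 times (1.81 to 3.35); Nupr1 was 1.45 times as high (1.36 to 1.55). Translocon and ER export genes had a median of 0.25 with 22 of 23 higher, led by Ssr4 at 1.96 times (1.77 to 2.16) and Srp54a, of the signal recognition particle, at 1.38 times (1.25 to 1.53). Degradation genes had a median of 0.23 with 10 of 14 higher, Herpud1 at 1.48 times (1.42 to 1.54) and Ube2j1, an ER-bound ubiquitin-conjugating enzyme, at 1.28 times (1.18 to 1.38). Of the transducers, 7 of 11 were higher with a median of 0.08; Creb3l2 was 1.16 times as high (1.1 to 1.21) and Nfyc, a subunit of NF-Y, 0.851 times (0.809 to 0.896).

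**Figure D4:**
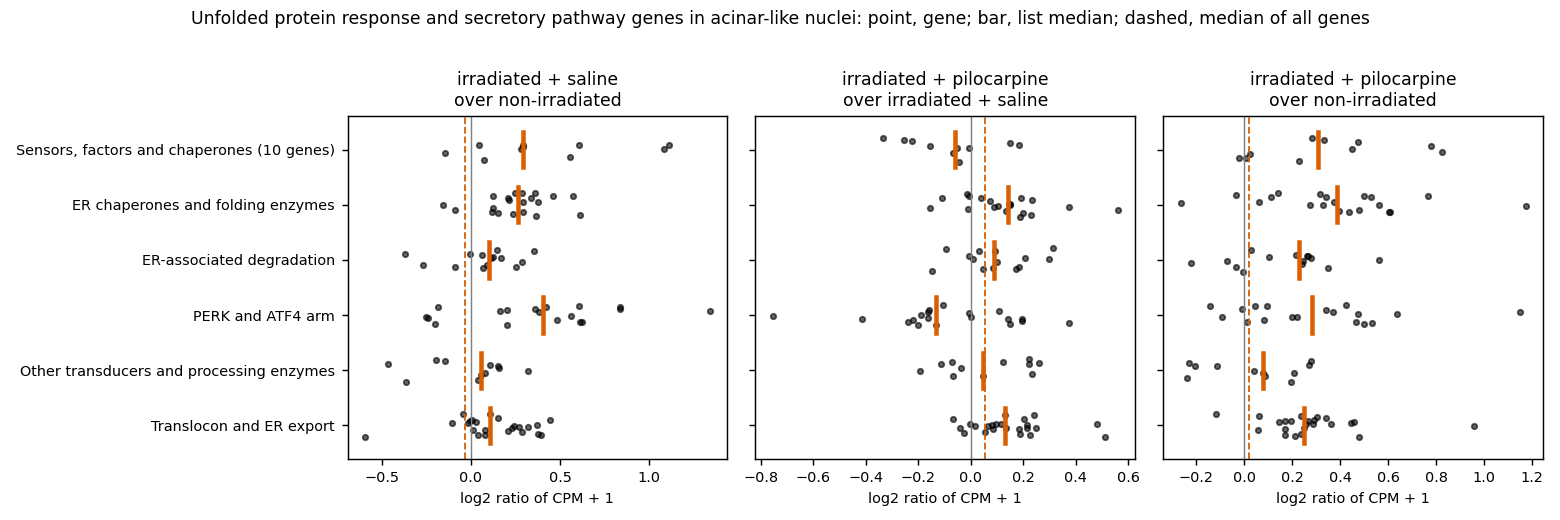
Log2 ratio of CPM + 1 (x axis) for the 10 genes and 5 pathway lists in acinar-like nuclei, with 1 panel per comparison; points are genes whose UMIs in the 2 libraries sum to 50 or more, orange bars list medians and the dashed line the median of all genes measured. The PERK and ATF4 arm has the highest list median, 0.40, for irradiated + saline over non-irradiated and the lowest, -0.13, for irradiated + pilocarpine over irradiated + saline.

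The ERSE letters shown above for Hspa5 and Hsp90b1 also occur in 7 of the pathway genes, which allows the sites to be read side by side. They are given on the strand that runs from CCAAT to CCACG, with the fixed ends in capitals and the spacer in lower case (RefSeq, GRCm38.p6).
Hspa5: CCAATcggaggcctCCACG
Hsp90b1, 212 to 194 bases before the start: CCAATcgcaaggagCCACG
Hsp90b1, 107 to 89 bases before the start: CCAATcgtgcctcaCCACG
Calr: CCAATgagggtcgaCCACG
Canx: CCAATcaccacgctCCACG
Pdia6: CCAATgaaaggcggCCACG
Dnajc3: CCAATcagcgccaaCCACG
Creld2: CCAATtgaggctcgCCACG
Syvn1: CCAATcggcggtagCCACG
Derl3: CCAATggggaagtcCCACG
In acinar-like nuclei, irradiated + saline over non-irradiated, the pathway genes among them were 1.5 times as high for Calr, 1.31 for Pdia6, 1.15 for Dnajc3, 1.11 for Canx, 1.09 for Creld2, 1.09 for Derl3 and 1.04 for Syvn1, and the intervals of Creld2 (0.864 to 1.39) and Syvn1 (0.944 to 1.15) include no difference. Of all 37 genes with an ERSE, 16 were measured and 14 were higher, or 87.5%, with a median log2 ratio of 0.21, against 43.0% and -0.04 over all 9054 measured genes with a promoter window. The 7 measured genes with an ERSE that are in none of these lists had a median of 0.22, with 5 higher. For irradiated + pilocarpine over irradiated + saline, 9 of 17 measured ERSE genes were higher and their median was 0.00, beside 61.8% and 0.05 over all genes with a promoter window. A match of letters is a description of the window, not a measured binding site, and shared membership of the chaperone list and the ERSE group means that these counts overlap with those above.

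CARE letters occurred in the windows of 9 pathway genes (Txndc5, Herpud1, Trib3, Atf3, Asns, Chac1, Nupr1, Slc7a11 and Vldlr), and in 3.97% of all promoter windows. The sites of Chac1 and Trib3 are shown, chosen after their values were seen because both were past 1.5-fold for irradiated + saline over non-irradiated. They are given on the strand that reads TGATG first, with the free base in lower case.
Chac1: TGATGcAA
Trib3: TGATGtAA
Chac1, for a glutathione-degrading enzyme, was at 4.01, 4.59 and 2.63 CPM in the irradiated + pilocarpine, irradiated + saline and non-irradiated acinar-like nuclei. Trib3, a pseudokinase induced by ATF4 and CHOP, was at 5.13, 7.16 and 4.35 CPM. Both were highest with saline, where they were 1.75 (1.09 to 2.87) and 1.65 times (1.14 to 2.41) as high as without irradiation. Over all 234 measured genes with a CARE match, the median log2 ratio for irradiated + saline over non-irradiated was -0.05, with 44.0% higher, close to the -0.04 and 43.0% of all genes with a window.

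Within acinar-like nuclei of 1000 to 3000 UMIs, nuclei with a Ddit3 UMI were set against those without. There were 138 and 2690 with pilocarpine, 118 and 1740 with saline, and 107 and 4067 without irradiation. For none of the other 9 genes did the interval of the ratio lie on the same side of 1 in all 3 libraries. Hsp90b1 was 1.44 times as high in nuclei with Ddit3 with saline (1.06 to 1.91), but 0.839 times with pilocarpine (0.583 to 1.17) and 0.971 times without irradiation (0.625 to 1.44). Xbp1 was at 1.23 (1.03 to 1.46) with pilocarpine, 1.02 (0.832 to 1.24) with saline and 1.25 (0.995 to 1.56) without irradiation. Other intervals that left out 1 were those of Atf6 with pilocarpine, at 1.27 (1.02 to 1.56), and of Ern1 without irradiation, at 1.28 (1.02 to 1.57). Hspa5 without irradiation went the other way, at 0.461 (0.185 to 0.957), on 7 UMIs in nuclei with Ddit3. Nuclei with a Ddit3 UMI also had more UMIs in all, a median of 2058 against 1840 with pilocarpine, for example, and these are nuclei of 1 library each, not replicates.

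Granular or striated duct-like nuclei, the other secretory epithelium compared, numbered 350 with pilocarpine, 1649 with saline and 664 without irradiation, all from cluster 3; cluster 7, with Muc13 and Egf among its leading genes, stayed unnamed and is not in them. Atf6 was at 262, 252 and 183 CPM in these nuclei in that order, and its ratio was 1.37 (1.16 to 1.63) for irradiated + saline over non-irradiated and 1.43 (1.13 to 1.80) for irradiated + pilocarpine over non-irradiated. Sel1l was at 507, 673 and 557 CPM, highest with saline, with ratios of 1.21 (1.1 to 1.34) over non-irradiated and 0.753 (0.660 to 0.857) for irradiated + pilocarpine over irradiated + saline. Hspa5 was at 50.7, 76.5 and 54.6 CPM, so that saline again gave the highest level, 1.40 times that without irradiation (1.03 to 1.94). Eif2ak3 was at 101, 132 and 165 CPM, lowest with pilocarpine at 0.616 times the level without irradiation (0.440 to 0.849). Atf4 was at 33.2, 29.4 and 37.1 CPM and Ddit3 at 25.4, 34.9 and 39.3 CPM, with intervals of every ratio that include no difference.

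Counted against 1.5-fold in duct-like nuclei, irradiated + saline over non-irradiated, 1 of 10 genes was past it, Dnajb9 at 2.14 times on 51 and 7 UMIs (0.965 to 5.58), and none was 1.5-fold lower, beside 6.89% of all genes above and 7.82% below. With pilocarpine set against saline, none of 10 was above (8.36% of all genes) and 2 were below (8.91%): Dnajb9 at 0.239 times on 2 and 51 UMIs (0.0282 to 0.910) and Hspa5 at 0.664 times (0.425 to 0.997). With pilocarpine set against no irradiation, 8 genes were measured, none was above (4.59%) and Eif2ak3 alone was below (8.35%). The shares over 10 genes are near the background, and the median log2 ratios were 0.06, -0.24 and -0.11 in the order of the comparisons, beside -0.04, -0.02 and -0.09 over all genes. The 5 acinar secretory products used to follow free RNA summed to 62832, 18708 and 37061 CPM in the duct-like nuclei of the irradiated + pilocarpine, irradiated + saline and non-irradiated library. In that order the 11 acinar markers summed to 65825, 20884 and 40254 CPM there, and the 12 duct markers to 14908, 22702 and 15798 CPM. Beyond subtraction, the part of free RNA in the ratios was not tested. With free RNA subtracted, Eif2ak3 was 1.05 times as high with pilocarpine as without irradiation, and Ern1, 0.916 times before, was 3.04 times as high.

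In duct-like nuclei the pathway lists gave small shifts for irradiated + saline over non-irradiated: 29 of 71 measured genes were higher, with a median log2 ratio of -0.04, beside 44.3% of all genes and a median of -0.04. That share is near the background, against which the counts of the single lists are also to be read. Chaperones were higher for 13 of 19 genes with a median of 0.22, and Hyou1, a large ER chaperone that acts on BiP, was at 67.2 CPM with saline and 39.3 CPM without irradiation, 1.71 times as high (1.20 to 2.51). The transducers were lower for 7 of 8, with a median of -0.23. Creb3l1 was 0.387 times as high (0.289 to 0.520) and Bhlha15 0.513 times (0.335 to 0.795). In the PERK and ATF4 arm, 2 of 9 genes were higher with a median of -0.04, and Eif2ak2, the kinase PKR, an interferon-induced eIF2α kinase, was 1.56 times as high (1.19 to 2.07). Degradation genes were higher for 5 of 14 (median -0.03; Edem3 0.773 times, 0.627 to 0.958). Translocon and export genes were higher for 8 of 21 (median -0.04; Sec62 0.785 times, 0.649 to 0.954, and Sec61g 0.691 times, 0.502 to 0.962).

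With pilocarpine, duct-like nuclei were few, and several of the pathway ratios rest on low counts. In the pilocarpine over the saline library, 38 of 71 measured pathway genes were higher with a median log2 ratio of 0.01, beside 47.2% of all genes and -0.02. Hyou1 was 0.378 times as high (0.198 to 0.660) on 13 and 210 UMIs, Vcp, the ATPase that pulls proteins out of the ER membrane, 0.571 times (0.376 to 0.836), and Srp54a 0.305 times (0.110 to 0.684) on 6 and 120 UMIs. Uggt1, which checks glycoprotein folding, was 1.38 times as high (1.08 to 1.74), Nupr1 1.84 times (1.37 to 2.45) and Ssr4 1.72 times (1.19 to 2.44). Eif2ak4, the amino acid sensing kinase GCN2, was 0.632 times as high (0.392 to 0.973) and Nfyc 1.20 times (1.01 to 1.41). For irradiated + pilocarpine over non-irradiated, 24 of 54 were higher with a median of -0.04, beside 39.5% of all genes and -0.09. Ssr4 was 2.21 times as high (1.37 to 3.58), Uggt1 1.56 times (1.15 to 2.09) and Nupr1 1.59 times (1.12 to 2.26), while Creb3l1 was 0.383 times (0.217 to 0.643), Eif2ak4 0.614 times (0.365 to 0.999), Sec61a1, the channel of the translocon, 0.696 times (0.480 to 0.994) and Sil1, a nucleotide exchange factor of BiP, 0.733 times (0.584 to 0.915).

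Fibroblast-like nuclei (737, 558 and 593 in the irradiated + pilocarpine, irradiated + saline and non-irradiated library) showed the lowest levels of several of the genes with saline. Sel1l was at 191, 154 and 236 CPM, Eif2ak3 at 192, 163 and 258 CPM, and Xbp1 at 202, 132 and 175 CPM. Irradiated + saline over non-irradiated, 2 of 9 measured genes were 1.5-fold lower, Sel1l at 0.653 times (0.535 to 0.798) and Eif2ak3 at 0.633 times (0.522 to 0.767), beside 12.8% of all genes, and none was above, beside 11.0%. Irradiated + pilocarpine over irradiated + saline, Atf6 was 1.59 times as high (1.29 to 1.97) and Xbp1 1.52 times (1.25 to 1.86), 2 of 9 beside 11.0% of all genes, and none was below, beside 6.41%. Irradiated + pilocarpine over non-irradiated, Hspa5 alone was past it, at 1.61 times (1.1 to 2.41), 1 of 9 beside 8.08%, and none was below, beside 5.09%.

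Myoepithelial-like nuclei, contractile cells that surround the acini, numbered 822, 420 and 374 in the same order. Ern1 was at 151, 84.1 and 154 CPM, Eif2ak3 at 166, 76.8 and 119 CPM, and Xbp1 at 162, 76.8 and 115 CPM, each lowest with saline. Irradiated + saline over non-irradiated, 4 of 8 measured genes were 1.5-fold lower, beside 7.82% of all genes: Ern1 at 0.546 times (0.407 to 0.730), Hspa5 at 0.641 times (0.378 to 1.08), Eif2ak3 at 0.644 times (0.468 to 0.882) and Xbp1 at 0.665 times (0.482 to 0.913). Atf4 went the other way at 1.81 times (1.06 to 3.21), 1 of 8 beside 7.82%. With pilocarpine set against saline, 4 of 10 were past 1.5-fold, beside 9.55%: Eif2ak3 at 2.16 times (1.68 to 2.82), Xbp1 at 2.12 times (1.64 to 2.76), Ern1 at 1.79 times (1.40 to 2.32) and Hspa5 at 1.71 times (1.12 to 2.70), and none was below, beside 5.16%. With pilocarpine set against no irradiation, none of 9 was past it, beside 9.30% above and 3.95% below.

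In both of these classes RNA of acinar products was also lowest with saline. The 5 acinar products summed to 47329, 28741 and 41480 CPM in fibroblast-like nuclei of the irradiated + pilocarpine, irradiated + saline and non-irradiated library, and to 42985, 28590 and 33258 CPM in myoepithelial-like nuclei. Eif2ak3 and Xbp1 are higher in acinar-like nuclei than in either class. With free RNA subtracted, an alternative added after seeing the data, Eif2ak3 in myoepithelial-like nuclei was 3.36 times as high for irradiated + saline over non-irradiated, against 0.644 times before, and Xbp1 in the non-irradiated library came to 0 in both classes. The direction of Eif2ak3 in that comparison depends on the subtraction. In fibroblast-like nuclei, Sel1l, 0.653 times as high for irradiated + saline over non-irradiated before, was 1.00 times as high after it. Hsp90b1 went from 0.853 to 1.93 times there, and from 1.27 to 6.11 times in myoepithelial-like nuclei. In the latter, Atf4 went from 1.81 to 10.1 times, Hspa5 with saline came to 0, and Ern1 stayed lower at 0.400 times. The counts past 1.5-fold for irradiated + saline over non-irradiated thus depend on the subtraction in both classes. In fibroblast-like nuclei, Atf6 with pilocarpine over saline was 2.28 times as high after subtraction, and Eif2ak3 with saline over non-irradiated 0.640 times, both on the same side as before. For pilocarpine over saline there, Sel1l went from 1.24 to 2.72 times and Hspa5 from 1.35 to 2.21. Hsp90b1 went from 1.48 to 1.95 and Ern1 from 1.36 to 1.87. In myoepithelial-like nuclei, Xbp1 went from 2.12 to 28.6 times, Ern1 from 1.79 to 4.31 and Sel1l from 1.25 to 2.42. Atf4 went from 0.772 to 0.623, and Hspa5 had no subtracted value. The counts past 1.5-fold for this comparison thus depend on the subtraction in both classes too. For irradiated + pilocarpine over non-irradiated, subtraction brought Hspa5 in the non-irradiated fibroblast-like nuclei to 0, so its ratio of 1.61 has no subtracted value. Sel1l there was 2.72 times as high after subtraction, against 0.812 times before, and Hsp90b1 3.77 times, Ern1 2.01 times, Atf4 1.99 times and Atf6 1.96 times. In myoepithelial-like nuclei, where no gene was past 1.5-fold in this comparison before, 6 were after subtraction: Eif2ak3 at 15.4 times, Hsp90b1 at 6.65, Atf4 at 6.32, Sel1l at 2.48, Ern1 at 1.72 and Hspa5 at 1.57. The counts of both classes in this comparison thus depend on the subtraction.

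Across the 9 named classes with at least 50 nuclei in every library, the genes differed in where they were highest. Xbp1, Eif2ak3 and Ern1 were highest in acinar-like nuclei, with 329 to 403 CPM, 361 to 401 CPM and 353 to 370 CPM over the 3 libraries. Cycling-like nuclei came next for all 3 genes, with ranges that overlap those of acinar-like nuclei (257 to 338, 332 to 381 and 300.4 to 423 CPM), and carried acinar products at 49114 to 58120 CPM. Duct-like nuclei were at the other end, with 108 to 119 CPM for Xbp1, 101 to 165 CPM for Eif2ak3 and 123 to 134 CPM for Ern1, overlapping the ranges of myoepithelial-like nuclei (76.8 to 162, 76.8 to 166 and 84.1 to 154 CPM). For these 3 genes the duct-like nuclei, though secretory, lay beside the myoepithelial-like ones before free RNA was subtracted. It was an estimated 47.0% of duct-like and 42.2% of myoepithelial-like UMIs in the non-irradiated library. After subtraction, Xbp1 in duct-like nuclei was at 45.3, 73.9 and 0 CPM with pilocarpine, with saline and without irradiation. In that order it was at 129, 4.52 and 0 CPM in myoepithelial-like and 424, 422 and 327 CPM in acinar-like nuclei. Duct-like Ern1 came to 115, 107 and 38.0 CPM. Duct-like and myoepithelial-like ranges depend on subtraction.

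Sel1l and Hsp90b1 followed another order. Ranges here are again before free RNA was subtracted, unless stated. Sel1l was highest in duct-like nuclei (507 to 673 CPM), overlapping acinar-like nuclei (490 to 514 CPM), and lowest in fibroblast-like (154 to 236 CPM) and myoepithelial-like nuclei (166 to 211 CPM). Hsp90b1 was likewise highest in duct-like nuclei (164 to 186 CPM), with cycling-like (105 to 169 CPM), ionocyte-like (125 to 153 CPM) and acinar-like nuclei (124 to 151 CPM) next, each overlapping its neighbour. Atf6 was highest in macrophage-like nuclei (290 to 312 CPM), above the whole range of ionocyte-like nuclei (200 to 284 CPM), with acinar-like (202 to 281 CPM) and duct-like nuclei (183 to 262 CPM) after them. Hspa5 was highest in acinar-like nuclei (71.5 to 106 CPM) and lowest in myoepithelial-like nuclei (29.4 to 50.4 CPM), and every neighbouring pair in its order overlapped. The same held for Atf4, Dnajb9 and Ddit3, which had 12 to 160 UMIs over the 3 libraries in each class other than acinar-like nuclei. In T or NK-like nuclei, only the irradiated libraries had 50 nuclei or more.

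**Figure D5:**
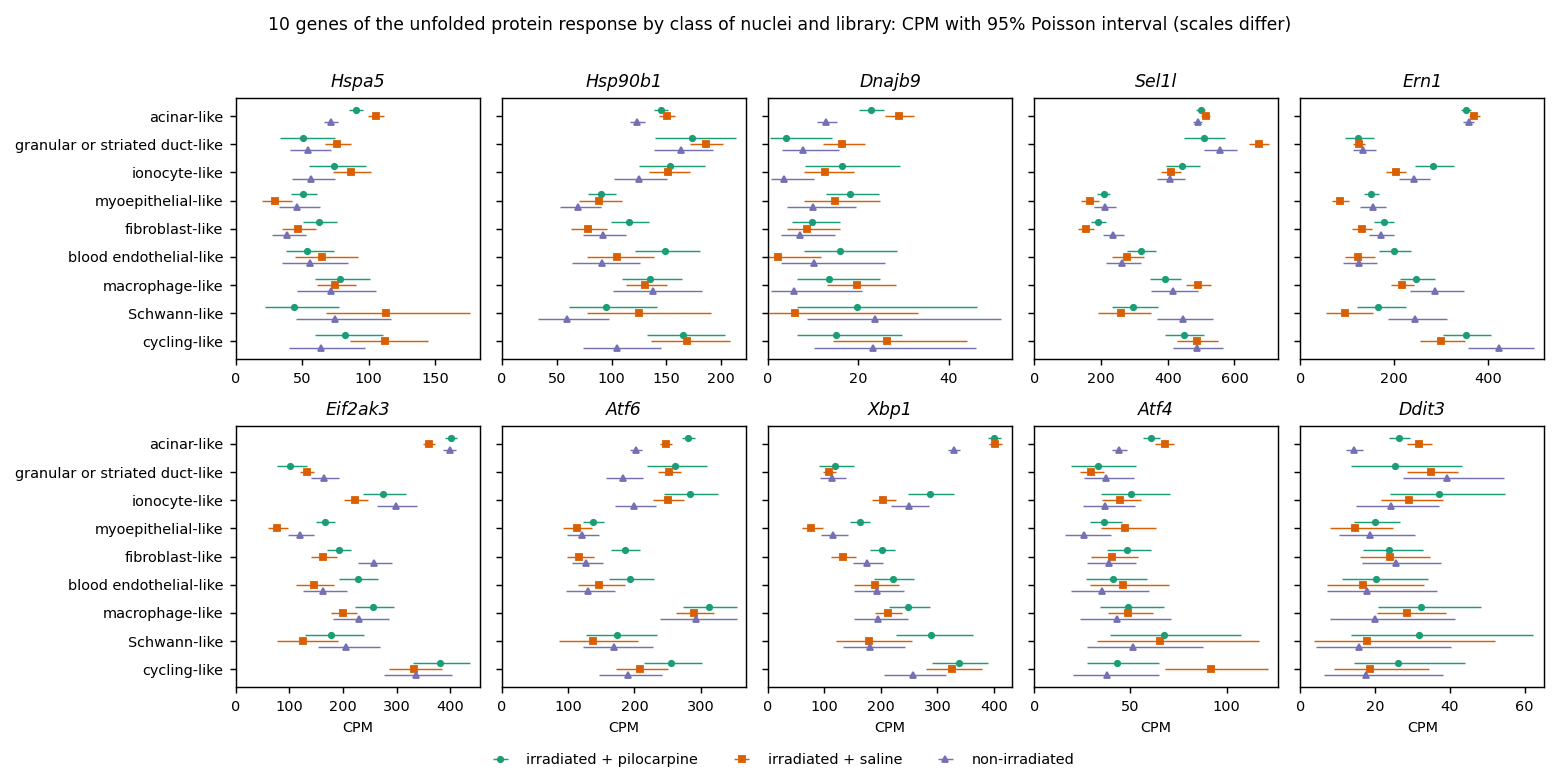
CPM (x axis, from 0, a scale for each gene) of the 10 genes in 9 classes of nuclei (rows) by library, with 95% Poisson intervals; circles are irradiated + pilocarpine, squares irradiated + saline and triangles non-irradiated. Xbp1, Ern1 and Eif2ak3 are high in acinar-like nuclei and low in duct-like ones, while Sel1l is highest in duct-like nuclei, at 673 CPM with saline.

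Over 29 profiles, 1 per library and class, the log2 levels of Ern1 and Eif2ak3 had a Pearson correlation of 0.92, Eif2ak3 and Xbp1 of 0.88, and Ern1 and Xbp1 of 0.81, whereas Ddit3 correlated with no other of the 10 genes above 0.58. Among 7706 genes with a mean of at least 20 CPM, the genes most like Xbp1 were Derl3 (0.946), a subunit of the ER retrotranslocation machinery, Mad1l1 and B530045E10Rik (each 0.945). Those most like Eif2ak3 were Galnt7 (0.952), an enzyme of mucin-type glycosylation, Smim14 (0.94) and Rrbp1 (0.939), a ribosome-binding ER protein. Those most like Sel1l were Esrp1 (0.955), an epithelial splicing factor, Plet1 (0.954) and Gm17276 (0.948). The profiles of 1 library share its preparation, depth and free RNA, so these correlations describe the libraries.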

How the data were processed

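Nuclei were sorted by DAPI from frozen submandibular glands and sequenced with a 3′ droplet kit, per the labels. The authors deposited UMI counts per gene and barcode, made with Cell Ranger 7.0.1 on GRCm38, per the submitters' processing notes; whether intron reads were counted is not given in the sources used here. Barcodes under 500 genes or over 5% mitochondrial UMIs were dropped, and the doublet caller run here called 0 nuclei, so doublets remain. Nuclei were clustered together (scanpy 1.11.5, Leiden 0.10.2, resolution 1, 3000 variable genes without the described genes, 30 components, 15 neighbours) and clusters named from markers. UMIs were summed per library and class. CPM have exact Poisson 95% intervals, ratios exact conditional binomial ones and shares Clopper-Pearson ones (scipy 1.17.1). A ratio counts as measured where the UMIs of the 2 libraries sum to 50 or more. Log2 ratios use CPM + 1. A class was compared with at least 300 nuclei in each library. Pathway genes named are, per list, class and comparison, the 2 measured genes whose interval lies farthest from 1; genes named for a motif or chosen otherwise are stated as such. A gene that this rule names in duct-like nuclei is not reported here. The genes and lists were chosen with earlier results of these data known. Promoters are RefSeq's, GRCm38.p6; motifs were searched on both strands, with 0 overlapping matches. The pipeline was tested on simulated data.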

Additional observations from a re-analysis of the deposited data

How the results depend on the processing

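No paired analysis was possible because there is a single library for every group, and none could be left out. Of the counts and medians recomputed under other settings, 165 values stayed within 1.5 times or their counting interval and 15 did not; the cause was not tested. In acinar-like nuclei, irradiated + saline over non-irradiated, the count past 1.5-fold was 1 instead of 3 with equal cluster weights, and the median was 0.40 instead of 0.29 with free RNA subtracted. Irradiated + pilocarpine over non-irradiated, the acinar count was 0 instead of 2 with a 2-fold threshold and 0 with equal cluster weights, and the median 0.17 instead of 0.31 relative to genes of like length. In duct-like nuclei, irradiated + saline over non-irradiated, the count was 3 with at least 1000 genes, 0 with nuclei of 1000 to 3000 UMIs and 5 with free RNA subtracted, instead of 1, and the median 0.53 with free RNA subtracted instead of 0.06. Irradiated + pilocarpine over irradiated + saline, the duct count was 3 instead of 0 with each library clustered alone, and the median -0.67 instead of -0.24 with free RNA subtracted. Irradiated + pilocarpine over non-irradiated, the duct count was 1 with at least 1000 genes, 1 with median-of-ratios scaling, 2 with free RNA subtracted and 3 with each library clustered alone, instead of 0, and the log2 ratio of Eif2ak3, -0.69, was 0.070 with free RNA subtracted and 0.71 with each library clustered alone, a reversed direction. Of 58 ratios of single genes, 34 kept their sign in every setting run. Sign changes occurred in both classes, with wider ranges of the log2 ratio in duct-like nuclei for the 2 genes given here. Irradiated + pilocarpine over non-irradiated, Ern1 ran from -0.805 to 1.58 in duct-like and from -0.0822 to 0.0608 in acinar-like nuclei. Irradiated + saline over non-irradiated, Xbp1 ran from -0.0862 to 6.23 in duct-like and from 0.229 to 0.419 in acinar-like nuclei. Equal weights, like length and the subtraction in fibroblast-like and myoepithelial-like nuclei were chosen after seeing the data. Few duct-like nuclei with pilocarpine limit the depth behind these ratios.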
